A study of Mus musculus with 20 samples.

Results

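The comparison of ptaquiloside plus selenium with selenium alone asks what ptaquiloside does to the transcripts of splenic natural killer (NK) cells when selenium is given at the same time. Its members are the 10 arrays of the 2 groups, chosen by their labels from the 20 arrays of the study. The 5 mice of one group received ptaquiloside at 5.3 mg/kg and selenium at 1.3 mg/kg, and the 5 mice of the other received selenium at 1.3 mg/kg, so selenium is common to both. All were male C57BL/6 mice, dosed by gavage on each of 14 days, and every array holds the cells of a different mouse. The remaining 10 arrays came from mice given water (control) or ptaquiloside at 5.3 mg/kg, and enter below only as levels set beside the 2 groups and in a test of the difference between effects. The cells were isolated untouched, by holding back other spleen cells on magnetic columns, and RNA of any cells left over would be measured with that of the NK cells. Ages of the mice are not given in the labels.

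Ptaquiloside, a carcinogenic glucoside made by bracken fern, breaks down to a reactive dienone that alkylates DNA, and is known to lower NK cell function in mice. Selenium is the trace element built as selenocysteine into selenoproteins such as glutathione peroxidases and thioredoxin reductases, and it has been studied as a protectant against such toxicity. NK cells kill infected and transformed cells with perforin and granzymes, release cytokines, and respond to type I interferon, which switches on a set of antiviral genes.

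Levels are given as the log2 signal of a gene's probe minus the 75th percentile of its array, so they compare arrays for a gene and not one gene with another. The 10 arrays were of similar quality, with 51.7% to 58.7% of spots well above background, but 1 array stood apart. On the array of mouse 5 given both compounds the 75th percentile of the signal was 45.5 scanner units, against 75.3 to 133 on the other 9, and its correlation with them across genes was 0.900 to 0.949, against 0.938 to 0.984 among those 9. The difference between the 2 mice of slide 5 had an SD over genes of 1.22, against 0.508 to 0.588 on the other slides, and its median in the dimmest decile of genes was 1.60, against 0.03 in the brightest decile. Where leaving out slide 5 moved a median or a count clearly, the value without it is given beside the result. Mice of one number, 1 from each group, were hybridised together on a slide, and since a treatment always took the same place there, place on the slide and treatment cannot be told apart. With 5 arrays a group, the count of arrays sets how precise each value is.

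Markers of the labelled cell type were present. All 12 NK marker genes were well above background on all 10 arrays, among them Ncr1 and Klrb1c, which encode the activating receptors NKp46 and NK1.1, and Prf1 and Gzmb, which encode perforin and granzyme B. Markers of other spleen cells were also measured: 13 of 18 B cell genes, 12 of 14 T cell genes, 18 of 22 macrophage and monocyte genes, 14 of 14 platelet genes and 11 of 13 basophil and mast cell genes were well above background on all 10 arrays. Of all 17481 genes tested, 13317 were well above background on all 10 arrays, so such counts by themselves do not show that those cells were present. No list of other cells had a tested member that was below background on every array. Genes were tested only if they had passed a filter on background over the 20 arrays, so this absence was partly set by the filter.

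No single gene passed the test. With limma and the slide as a block, 0 of the 17481 genes tested (0%) had a Benjamini-Hochberg adjusted p under 0.05, and the smallest adjusted p was 0.732. An unadjusted p under 0.05 was found for 494 genes (2.83% of those tested), 275 higher (1.57%) and 219 lower (1.25%) with both compounds than with selenium. The median difference over all genes was 0.00 on the log2 scale, and 105 genes differed by 1 or more. Without slide 5 the adjusted count was again 0, with 684 genes higher (3.91%) and 1298 lower (7.43%) at an unadjusted p under 0.05 and a median difference of -0.06. Centring each array on its median moved the median of all genes to -0.11 and the split to 131 higher of 405, and quantile normalization gave 241 higher of 595, so the share of higher genes depends on the scaling. All values below describe genes and lists that did not pass the adjusted test.

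**Figure D1:**
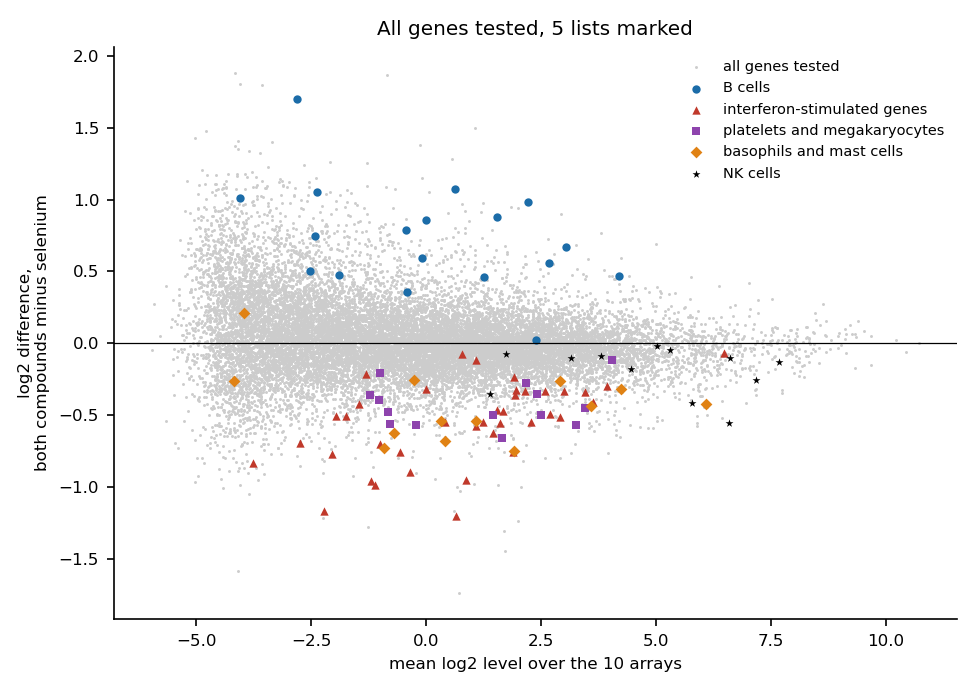
Each grey point is 1 of the 17481 genes tested, with its mean log2 level over the 10 arrays on the x axis and the log2 difference, both compounds minus selenium, on the y axis; coloured symbols mark 5 gene lists. All 18 B cell genes lie above 0 (17 of 18 when arrays are centred on the median), all 39 interferon-stimulated genes and all 14 platelet genes lie below 0, and the 12 NK markers lie between -0.55 and -0.02.

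The genes described singly are the 12 higher and the 12 lower with the smallest p among those that differed by at least 0.5 and in one direction on 5 of 5 slides. There were 93 such genes higher and 80 lower. Over all genes 2.19% were higher and 2.48% were lower on all 5 slides. As the rule used the differences, the tests of these 24 genes describe them and are no support. Ebf1, a transcription factor that sets B cell identity (probe on chromosome 11, 44818365 to 44818424, build mm9), led the higher ones and had the smallest p of all genes. Its levels with both compounds were -1.57, -1.75, -0.48, -4.29 and -1.73 in mice 1 to 5, and with selenium -2.97, -3.74, -2.42, -5.57 and -3.64. Mouse 4 was the lowest of both groups, the groups overlapped through it, and on every slide the mouse given both compounds was the higher one. The mean difference was 1.70 ± 0.17 (SE), or 3.26-fold, with an adjusted p of 0.732 from limma, and the control mean was -1.67 ± 0.84 (SD, n = 5). The probe was above background on 4 and 3 of 5 arrays, and with the normexp background correction, which shrinks differences of dim probes, the difference was 0.35.

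Scd1, the stearoyl-CoA desaturase that makes monounsaturated fatty acids (chromosome 19, 44469387 to 44469446), was measured on all 10 arrays. It stood at 1.17, 1.13, 1.95, -1.81 and 0.35 with both compounds and at -0.58, -0.84, 0.19, -2.16 and -0.72 with selenium. Mouse 4 was again the lowest in each group, and the difference of 1.38 ± 0.27 (SE) was 2.60-fold. Of the other 26 genes tested in the list of cholesterol and fatty acid synthesis none had an unadjusted p under 0.05, and the list's median difference was -0.01. Eif2ak3, which encodes PERK, the kinase that slows translation in endoplasmic reticulum stress (chromosome 6, 70854787 to 70854846), stood at 0.91, 0.88, 1.73, 0.41 and 1.52 against -0.11, 0.05, 0.68, 0.08 and 0.88. Selenium mice 3 and 5 lay within the range of both compounds, the difference was 0.77 ± 0.16 (SE), and its 2 probes gave 0.77 and 0.93.

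Among the 12 higher genes the 2 groups did not overlap in 3: Lrrk2, Camk2b and Dennd5b, against 0.0972% of all genes with such a separation upwards. Choice by small p favours such separation, in these and in the genes named below, so it is no support. Lrrk2, a large kinase of endolysosomal traffic, ranged from -1.28 to -0.58 with both compounds and from -2.51 to -1.47 with selenium (0.85 ± 0.17, SE). Camk2b, a subunit of calcium/calmodulin-dependent kinase II, ranged from 1.02 to 1.69 against 0.25 to 0.98 (0.65 ± 0.15). Dennd5b, a regulator of Rab GTPases, differed by 1.13 ± 0.28, but a further probe of the gene gave 0.30. Il5ra, the receptor chain for interleukin 5, was higher by 0.57 ± 0.13. The remaining members were Cyp2c55, a cytochrome P450 (0.98 ± 0.14), Pgap1, which remodels GPI anchors (0.97 ± 0.18), Rassf3 (0.69 ± 0.16), Car11 (0.85 ± 0.20) and Ildr1 (0.86 ± 0.21). Most of these are dim, and under normexp Cyp2c55, Pgap1, Il5ra, Car11 and Dennd5b lay between 0.03 and 0.10.

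Among the lower genes, Lgals3bp, a secreted galectin-binding glycoprotein (chromosome 11, 118254070 to 118254129), stood at 3.35, 3.78, 3.77, 3.97 and 3.06 with both compounds and at 3.74, 4.81, 4.39, 4.96 and 3.85 with selenium. The mouse given both compounds was lower on every slide, although the highest of them lay above the 2 lowest of the selenium group. The difference was -0.76 ± 0.15 (SE), and the control mean was 3.70 ± 0.25 (SD, n = 5). Tgtp1, an interferon-inducible GTPase (chromosome 11, 48800173 to 48800232), stood at 1.77, 2.08, 1.80, 1.69 and 0.53 against 2.35, 2.56, 2.70, 3.50 and 1.75. Mouse 5 was the lowest of both groups, the difference was -0.999 ± 0.23, and without slide 5 it was -0.94. A further probe of Tgtp1 gave -0.23.

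Cyp11a1, the enzyme that cuts the side chain of cholesterol to start steroid synthesis (chromosome 9, 57874074 to 57874544), was the 1 lower gene of the 12 whose groups did not overlap, against 0.0629% of all genes. It stood at 0.36, 0.68, 0.79, 0.81 and 0.25 with both compounds and at 0.95, 1.37, 1.27, 2.06 and 1.15 with selenium, a difference of -0.78 ± 0.16 (SE). Cd200r3, an activating receptor of basophils and mast cells (chromosome 16, 44957872 to 44957931), stood at -1.46, -1.17, -0.86, -1.24 and -1.62 against -1.08, -0.30, -0.39, -0.18 and -0.75. Mouse 1 of the selenium group lay among the mice given both compounds, the other 4 above all of them, and the difference was -0.73 ± 0.16. Crtam, an adhesion receptor of activated NK and CD8 T cells, gave -0.71 ± 0.17. Klf5 and Zfp385a, which encode zinc finger proteins, gave -0.66 ± 0.15 and -0.58 ± 0.13, and Alox8, a lipoxygenase, -0.70 ± 0.14. Ttll10 (-0.70), Pdzph1 (-0.81), Fam13c (-0.90) and Dixdc1 (-0.82), a protein of the Wnt pathway, complete the group. A further probe pointed the other way for Dixdc1 (0.06) and Zfp385a (0.15). In each of the 24 genes the control mean lay on the same side of the selenium mean as the mean of both compounds did; the selenium arrays enter both differences, so this is not independent of the first.

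**Figure D2:**
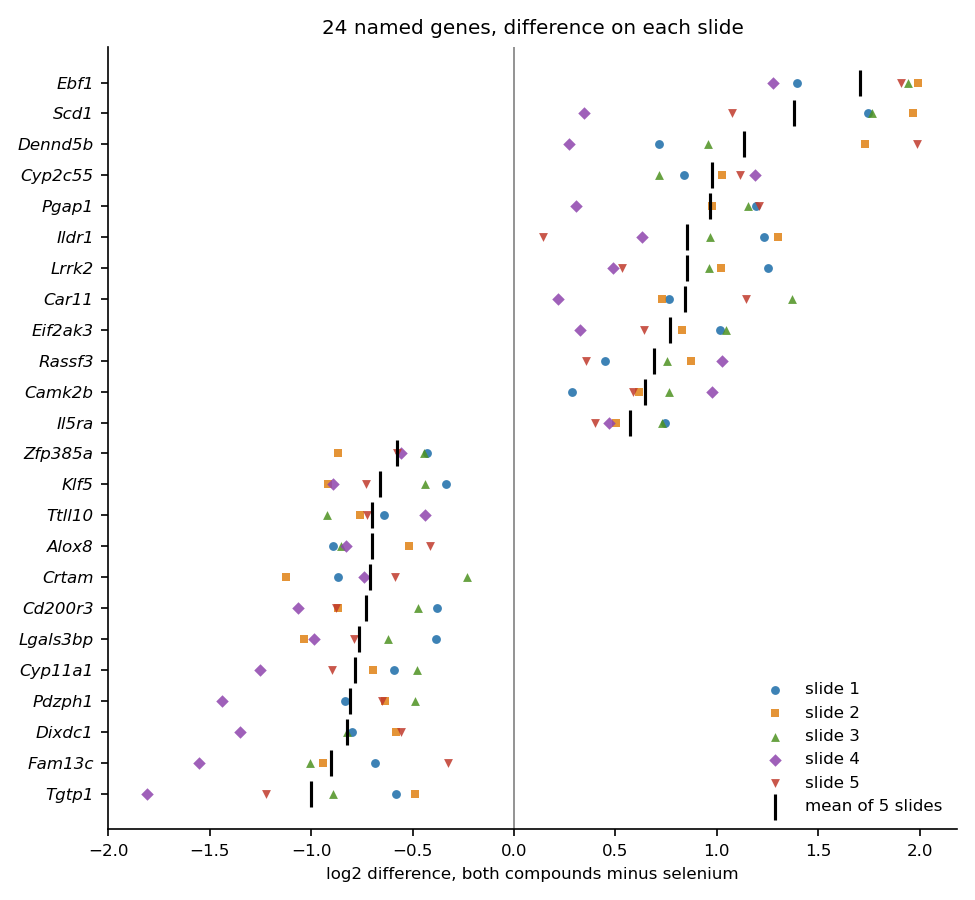
Each symbol is the log2 difference, both compounds minus selenium, between the 2 mice of 1 slide for each of 24 genes, and the black bar is the mean of 5 slides. All symbols of the 12 higher genes lie above 0 and those of the 12 lower genes below 0, as the rule required; Ebf1 averages 1.70 and Tgtp1 -0.999.

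Interferon-stimulated genes had lower means with both compounds than with selenium. The median over members of the group mean was 0.97 with both compounds, 1.37 with selenium and 0.95 in control. All 39 tested of the 41 listed had a lower mean, against 49.9% of all genes, and their median difference was -0.51 (range -1.20 to -0.07), against 0.00 over all genes. Of the 39, 10 were lower and 0 higher at an unadjusted p under 0.05, against 1.25% of all genes lower, and 12 were lower on all 5 slides, against 2.48% of all genes; 0 passed the adjusted threshold. By slide the median of the members' differences was -0.11, -0.54, -0.78, -1.08 and 0.08. On slide 5 this median was above 0 while the median level of the list was lower there too, 0.36 against 0.94. Without slide 5 all 39 remained lower, with a median of -0.54 and 23 at an unadjusted p under 0.05, against 7.43% of all genes lower. Without slide 4 the median was -0.37.

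Oasl2, an oligoadenylate synthetase-like protein that dampens RNA virus infection (chromosome 5, 115362168 to 115362227), stood at -0.24, 0.56, 0.30, 0.00 and -0.32 with both compounds and at -0.08, 1.78, 1.59, 2.52 and 0.50 with selenium. Selenium mice 2, 3 and 4 lay above all mice given both compounds, and selenium mice 1 and 5 lay among them. The difference was -1.20 ± 0.33 (SE), or 2.30-fold lower with both compounds, and the control mean was 0.29 ± 0.45 (SD, n = 5). Oas3, which makes the oligoadenylates that activate RNase L, ranged narrowly from -1.91 to -1.44 with both compounds and widely from -1.62 to 0.43 with selenium (-0.96 ± 0.28). Rsad2, which encodes the antiviral enzyme viperin, stood at 0.38, 1.15, 0.18, -0.04 and 0.31 against 0.86, 2.30, 1.59, 1.70 and 0.28 (-0.95 ± 0.28). On slide 5 the 2 mice were nearly equal, and without that slide the difference was -1.19. Usp18, the protease that removes ISG15 and damps interferon signalling, differed by -0.89 ± 0.27. The selenium arrays spread more than those with both compounds in each of these 4 genes, with SDs of 1.04, 0.79, 0.78 and 0.83 against 0.37, 0.17, 0.45 and 0.25.

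The promoter windows of 2 interferon-stimulated genes are shown because the members lay lower together; they are the 250 bases before the start site, from RefSeq on GRCm38.p6, and capitals mark the match to GAAANNGAAA or its reverse complement. The Oas3 window is chr5:120777660-120777909 on the minus strand, with the match 65 bases before the start site. That of Rsad2 is chr12:26456453-26456702 on the minus strand, with the match on the opposite strand 110 bases before the start site.
Oas3: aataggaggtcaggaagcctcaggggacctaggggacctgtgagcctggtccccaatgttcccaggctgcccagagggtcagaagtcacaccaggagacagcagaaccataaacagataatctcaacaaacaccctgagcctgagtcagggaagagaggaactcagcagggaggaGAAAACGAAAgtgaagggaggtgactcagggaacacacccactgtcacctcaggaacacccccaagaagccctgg
Rsad2: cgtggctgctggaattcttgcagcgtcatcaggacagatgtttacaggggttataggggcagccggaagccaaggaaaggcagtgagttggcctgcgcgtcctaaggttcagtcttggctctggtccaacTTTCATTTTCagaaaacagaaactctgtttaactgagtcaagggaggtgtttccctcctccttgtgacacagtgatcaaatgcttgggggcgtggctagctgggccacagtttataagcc
The motif GAAANNGAAA, searched on both strands, was in 14 of the 28 members with a window, against 3.46% of 27025 genes with a window of the same length. It was not among the letters of the Oasl2 window. A match is a description of these letters, not a measured binding site.

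Genes of the cell cycle and DNA replication were also lower. All 41 tested of 43 listed had a lower mean, with a median of -0.30 (range -0.70 to -0.05), 4 at an unadjusted p under 0.05 (1.25% of all genes lower) and 5 lower on all 5 slides (2.48% of all genes). The slides did not agree: the median was 0.06, -0.81, -0.88, -0.64 and 0.66 on slides 1 to 5. Without slide 5 the median was -0.56, with 40 of 41 lower and 23 at an unadjusted p under 0.05 (7.43% of all genes lower), and without slide 3 it was -0.18 with 7 of 41 higher. On slide 5 the selenium mouse was the low one of its group, at a median level of 0.23 against 1.25 to 1.67 in the other selenium mice, and the mouse given both compounds is the array that stood apart. Mcm5, a subunit of the replicative helicase, stood at 3.05, 2.78, 2.55, 2.69 and 1.70 with both compounds and at 3.07, 3.59, 3.35, 3.18 and 2.10 with selenium (-0.50 ± 0.17, SE). Mouse 5 was the lowest of both groups, and mouse 1 of both groups was nearly equal. Ccnd3, a D-type cyclin of lymphocytes, differed by -0.41 ± 0.14, Cdc45, a helicase cofactor, by -0.48 ± 0.18, and Cdk1, the mitotic kinase, by -0.70 ± 0.27. For the list, medians of the group means were 0.96 with both compounds, 1.30 with selenium and 0.76 in control.

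The promoter windows of Mcm5 and Cdk1 are shown for the E2F motif TTTCGCGC of replication genes, which capitals mark (chr8:75109259-75109508 on the plus strand and chr10:69352913-69353162 on the minus strand, GRCm38.p6, RefSeq).
Mcm5: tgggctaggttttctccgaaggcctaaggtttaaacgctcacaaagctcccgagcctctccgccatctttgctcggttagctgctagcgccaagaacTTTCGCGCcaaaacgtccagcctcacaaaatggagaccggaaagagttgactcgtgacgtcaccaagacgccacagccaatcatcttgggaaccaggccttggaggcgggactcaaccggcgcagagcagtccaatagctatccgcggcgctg
Cdk1: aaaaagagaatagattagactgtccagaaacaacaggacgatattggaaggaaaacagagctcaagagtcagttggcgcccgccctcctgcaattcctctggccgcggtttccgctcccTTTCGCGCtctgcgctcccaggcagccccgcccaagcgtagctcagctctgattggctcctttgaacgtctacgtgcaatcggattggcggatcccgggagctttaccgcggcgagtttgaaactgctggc
These letters, on either strand, were in 4 of the 34 members with a window and in 0.3% of 27025 genes.

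Markers of several other spleen cells differed between the groups as well. In such bulk samples fewer cells of a type and less RNA per cell cannot be told apart. B cell genes were higher with both compounds in 18 of 18 (17 of 18 with median centring), against 50.1% of all genes, with a median of 0.71 (range 0.02 to 1.70) and 9 at an unadjusted p under 0.05 (1.57% of all genes higher). By slide the median was 1.17, 0.79, 1.04, -0.34 and 0.71, so that slide 4 went the other way. The summed signal of the list, in units of the array's 75th percentile, was 84.3, 81.4, 131, 25.8 and 68.7 with both compounds and 42.7, 66.4, 58.4, 31.3 and 37.7 with selenium. Without slide 5 the median was 0.73, again with 9 at an unadjusted p under 0.05 (3.91% of all genes higher), and without slide 4 it was 1.05. Medians of the group means were 0.32 with both compounds, -0.41 with selenium and 0.38 in control. Ms4a1, which encodes CD20, stood at 3.11, 3.31, 3.66, 0.66 and 2.79 against 2.06, 2.55, 2.70, 0.46 and 0.84 (0.98 ± 0.26, SE), higher on every slide. Pax5, the B lineage factor, differed by 1.01 ± 0.27 but was above background on 1 of 5 selenium arrays, and Fcer2a, which encodes CD23, differed by 1.05 ± 0.32.

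T cell genes were higher in 13 of 14 (12 of 14 with median centring), with a median of 0.40 and 3 at an unadjusted p under 0.05 (1.57% of all genes higher). The slide medians were 0.44, 0.65, 0.96, -0.14 and 0.57, so slide 4 went the other way. On all 5 slides 0 of 14 were higher, against 2.19% of all genes. Cd8b1, the beta chain of CD8 (chromosome 6, 71287068 to 71287126), stood at -1.16, 1.62, 2.29, -2.30 and 0.02 with both compounds and at -2.19, -1.31, -1.51, -2.19 and -1.66 with selenium. The mice given both compounds spread widely, mouse 4 being as low as the selenium mice, and the difference of 1.87 ± 0.56 (SE) was 3.65-fold. Cd5, Cd6 and Cd8a, also T cell surface proteins, differed by 1.15, 0.79 and 1.16, and Cd3e, of the CD3 complex, by 0.42. The summed signal of the list ranged from 15.8 to 39.6 with both compounds and from 17.9 to 24.9 with selenium. Without slide 5 the median was 0.42, and with the normexp background it was 0.16, each with 12 of 14 higher. Medians of the group means were -0.45 with both compounds, -1.17 with selenium and -0.48 in control.

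Macrophage and monocyte genes were higher in 18 of 22 (12 of 22 with median centring), with a median of 0.30 and 4 at an unadjusted p under 0.05 (1.57% of all genes higher). The median over members of the group mean went the other way, 0.08 with both compounds and 0.36 with selenium, and the median level of the list was higher on 3 of 5 slides. The median difference was 0.49 without slide 5, with 15 of 22 higher. It was 0.05 under normexp, where 14 of 22 were higher. Spic, the factor of iron-recycling splenic macrophages, differed by 0.57 ± 0.20, Cd5l, a macrophage-secreted protein, by 1.03 ± 0.41, Ms4a7 by 0.64 ± 0.26 and Mrc1, the mannose receptor, by 0.96 ± 0.39. Csf1r, the receptor for macrophage colony-stimulating factor, gave 0.06 ± 0.36 and 0.48 without slide 5. Of 19 dendritic cell genes 13 were higher, with a median of 0.12 that was 0.01 under median centring and -0.02 without slide 1. The group means again went the other way, with a median of 1.21 with both compounds and 1.40 with selenium. The class II genes H2-Ab1 and H2-Eb1 and their activator Ciita were higher on 5 of 5 slides by 0.42, 0.46 and 0.40.

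Platelet and megakaryocyte genes were lower in 14 of 14, with a median of -0.47 (range -0.66 to -0.12), 7 at an unadjusted p under 0.05 (1.25% of all genes lower) and 7 lower on all 5 slides (2.48%). The median was -0.45 without slide 5, again with 14 of 14 lower. The median was below 0 on each slide, at -0.82, -0.36, -0.08, -0.40 and -0.37. Itga2b, the integrin chain that binds fibrinogen (chromosome 11, 102319453 to 102319661), stood at 1.34, 1.58, 1.77, 1.28 and 0.67 with both compounds and at 2.39, 1.79, 1.97, 1.87 and 1.90 with selenium. Its groups did not overlap, by a narrow gap of 1.77 against 1.79, where 0.0629% of all genes had such a separation downwards. The difference was -0.66 ± 0.21 (SE). Gp9 and Gp1ba, of the von Willebrand factor receptor, differed by -0.50 and -0.48. The summed signal ranged from 38.2 to 65.3 with both compounds and from 49.6 to 93.1 with selenium.

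Basophil and mast cell genes were lower in 12 of 13, with a median of -0.44 and 5 at an unadjusted p under 0.05 (1.25% of all genes lower). The summed signal was 82.1 to 127 with both compounds against 89.4 to 203 with selenium. Without slide 5 all 13 were lower, with a median of -0.62 and 10 at an unadjusted p under 0.05 (7.43% of all genes lower). Medians of the group means were 0.07 with both compounds, 0.75 with selenium and 0.58 in control. Fcer1a, the IgE-binding receptor chain, stood at -1.13, -0.85, -1.03, -0.87 and -1.16 with both compounds and at -0.83, -0.06, -0.11, 0.19 and -1.10 with selenium (-0.63 ± 0.19, SE). Selenium mice 1 to 4 lay above all mice given both compounds, mouse 1 narrowly, and mouse 5 lay among them. Cpa3, a mast cell and basophil carboxypeptidase, differed by -0.54 ± 0.18 and the basophil protease Prss34 by -0.75 ± 0.29. Ccr3, the eotaxin receptor, was the lowest of 8 eosinophil genes at -0.56 ± 0.19, whereas Il5ra of the same list was higher.

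Neutrophil genes were lower in 14 of 18, with a median of -0.23, and went both ways by slide, from -1.62 on slide 3 to 0.76 on slide 1. The median was -0.47 without slide 5 and -0.48 without slide 1, but 0.18 without slide 3, where 12 of 18 were higher, so its direction rests on slide 3. Padi4, which citrullinates histones, was 1.87 to 2.09 with both compounds and 2.29 to 2.84 with selenium. The groups did not overlap, against 0.0629% of all genes with such a separation downwards, and the difference was -0.57 ± 0.16. Mmp9, a gelatinase, differed by -0.75 ± 0.20 and Retnlg by -0.53 ± 0.25, while the collagenase Mmp8 gave 0.81 ± 0.36. Interferon-stimulated, cell cycle, cytokine and class II genes are expressed by several of these cells. The part of the marker genes' shifts in those results was not tested.

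**Figure D3:**
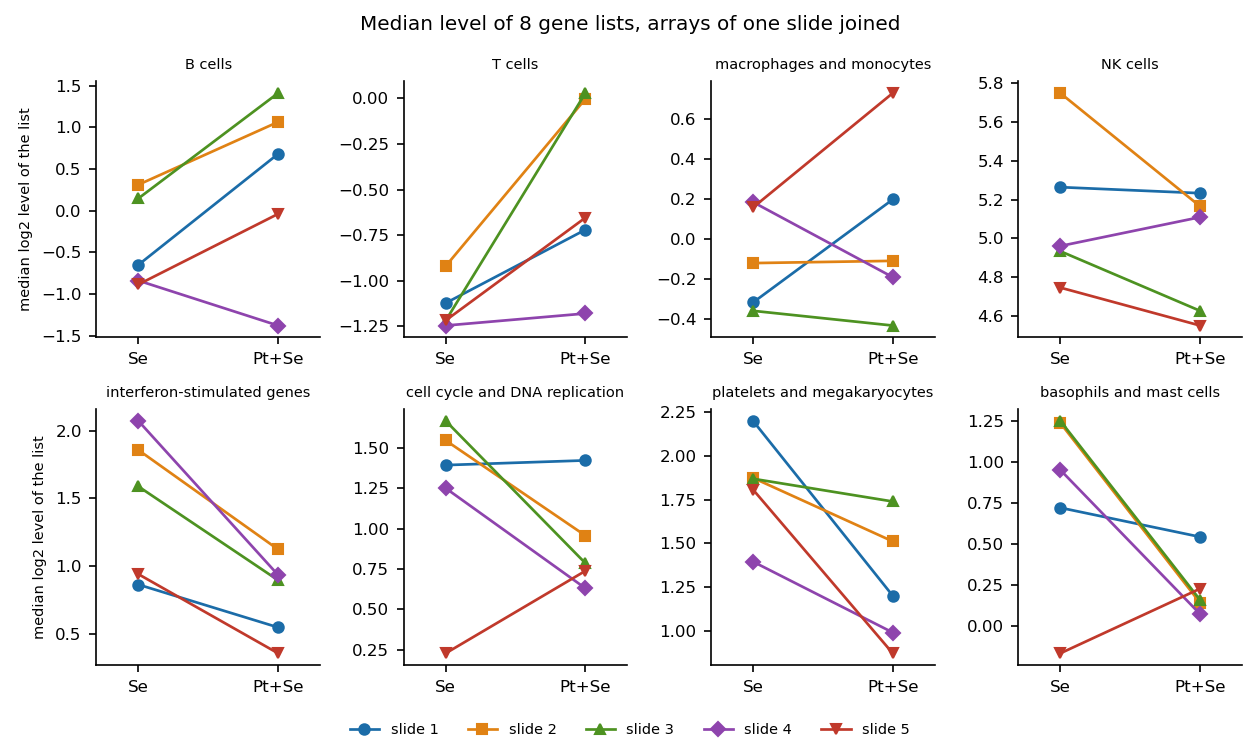
Each panel shows the median log2 level of 1 gene list on the selenium array (Se) and on the array of both compounds (Pt+Se), with lines joining the 2 arrays of a slide. The interferon-stimulated and platelet lists go down on 5 of 5 slides, the B cell list goes up on 4 of 5, and slide 5 goes up in the cell cycle and basophil lists, where the other slides go down or stay level.

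Genes of NK cells themselves lay closer together. All 12 NK markers had a lower mean with both compounds (10 of 12 with quantile normalization), but their median difference was -0.12, 0 of 12 had an unadjusted p under 0.05, and the median was above 0 on slides 3 and 4. Prf1 stood at 6.05, 6.01, 5.69, 5.96 and 4.12 with both compounds and at 6.06, 6.61, 5.59, 5.97 and 5.68 with selenium. Its difference of -0.41 ± 0.27 (SE) was -0.13 without slide 5, since the array that stood apart was the only one far below the selenium range. Ncr1 behaved likewise, at -0.36 ± 0.26 and -0.11 without slide 5. Klrb1c differed by -0.18 ± 0.15. Gzmb, whose bright spots on both arrays of slide 2 were marked as uneven by the scanner software and left out, differed over the other 8 arrays by -0.55 ± 0.24 and by -0.30 without slide 5. Of 20 cytotoxic effector genes 16 were lower, with a median of -0.22 and 0 at an unadjusted p under 0.05. Leaving out slide 5 gave a median of -0.11, with 13 of 20 lower; Gzmc, a granzyme of activated cells, gave -0.40 ± 0.17. Of 36 Ly49 and other NK receptors 13 were higher, with a median of -0.05, and without slide 5 18 were higher, with a median of -0.01.

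NK cytokines and chemokines were lower in 16 of 21, with a median difference of -0.15, 6 lower at an unadjusted p under 0.05 (1.25% of all genes) and 7 lower on all 5 slides (2.48% of all genes). The median was -0.07 without slide 2 and -0.25 without slide 5. The median over members of the group mean went the other way, 2.78 with both compounds and 2.69 with selenium. Csf2, which encodes GM-CSF, stood at 0.52, 0.62, -0.53, -1.46 and -1.01 with both compounds and at 0.89, 1.68, -0.30, -0.65 and -0.59 with selenium (-0.58 ± 0.17, SE). The mice differed more from each other than the groups did, and on every slide the mouse given both compounds was the lower one. Cxcl10, a chemokine induced by interferon, differed by -0.76 ± 0.24, the chemokine Ccl6 by -0.37 ± 0.13 and Csf1, which encodes M-CSF, by -0.35 ± 0.13, each lower on 5 of 5 slides. Cish, a feedback inhibitor of cytokine signalling, gave -0.39 ± 0.16. Among 26 genes of maturation and trafficking S1pr1, the receptor by which lymphocytes leave tissues, was higher on every slide, at 1.30, 1.94, 1.76, 0.93 and 2.70 against 1.12, 0.90, 0.72, 0.28 and 0.76 (0.98 ± 0.26). For S1pr1 the largest difference was on slide 5, with the array that stood apart. B and T cells are lymphocytes too, and the part of their markers' shifts in this gene was not tested. Ly6c2, of mature NK cells and monocytes, gave -0.56 ± 0.22.

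Genes of selenium and metal handling had medians near that of all genes. Of 29 selenoprotein and selenium handling genes 12 were higher and 17 lower (3 higher with median centring), with a median of -0.01 and 0 at an unadjusted p under 0.05; Selenos, of the endoplasmic reticulum, gave 0.18 ± 0.12 and Eefsec, the selenocysteine elongation factor, -0.29 ± 0.13. Leaving out slide 5 gave a median of -0.06, with 21 of 29 lower. The 4 metallothioneins, which bind zinc and other metals, had a median of -0.13. Mt1 stood at 6.13, 3.51, 3.03, 2.67 and 3.94 with both compounds and at 5.60, 4.17, 2.99, 3.43 and 4.17 with selenium. Mouse 1 was the highest of both groups, the slides went both ways, and the difference was -0.21 ± 0.22 (SE), with Mt2 at -0.37 ± 0.31. Without selenium, ptaquiloside minus control was 0.76 for Mt1 and 0.68 for Mt2, and the difference between the effects was -1.003 and -1.19 with an adjusted p of 0.971 from limma for each.

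Of 30 NRF2 and glutathione genes 21 were lower, with a median of -0.06 (-0.10 without slide 5). Nqo1, a quinone reductase of that response, stood at -0.45, -1.35, -0.70, -0.97 and 0.16 with both compounds and at -0.04, -0.83, 0.41, -0.30 and 0.26 with selenium (-0.56 ± 0.18). It was lower on every slide, although the groups overlapped, and Gclm, of glutathione synthesis, gave -0.44 ± 0.21. In the aryl hydrocarbon receptor list the repressor Ahrr gave 0.09 ± 0.36 and Tiparp -0.26 ± 0.30, and the control means of both lay below either group. Those means were -4.23 for Ahrr against -2.39 with both compounds and -2.48 with selenium, and 2.73 for Tiparp against 3.40 and 3.66.

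Of 33 p53 and checkpoint genes 17 were higher and 16 lower (7 higher with median centring), with a median of 0.00 and 0 at an unadjusted p under 0.05. Without slide 5 21 were lower, with a median of -0.03. Of 39 DNA repair genes 29 were lower, with a median of -0.11; Neil1, a glycosylase of base excision repair, was higher on 5 of 5 slides by 0.39 ± 0.13, and the checkpoint kinase Chek1 gave -0.46 ± 0.29. In the list of endoplasmic reticulum stress and amino acid response 22 of 30 were lower, with a median of -0.13. Trib3, a pseudokinase induced by stress, stood at 0.18, 0.69, 1.19, 0.97 and 1.01 against 0.98, 1.15, 2.01, 1.24 and 1.20 (-0.50 ± 0.16), and Shmt2, of mitochondrial one-carbon metabolism, and Asns, asparagine synthetase, gave -0.42 ± 0.14 and -0.37 ± 0.17. Eif2ak3 of the same list was the gene farthest in the other direction. Immediate early genes were higher in 19 of 27 (15 of 27 with median centring, median 0.01), with a median of 0.11, led by the transcription factors Egr3 (0.68 ± 0.24) and Egr1 (0.36 ± 0.13). In the list of MHC class I and antigen processing 13 of 15 were lower, with a median of -0.07 (-0.13 without slide 5); the peptide transporter Tap1 gave -0.47 ± 0.25.

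**Figure D4:**
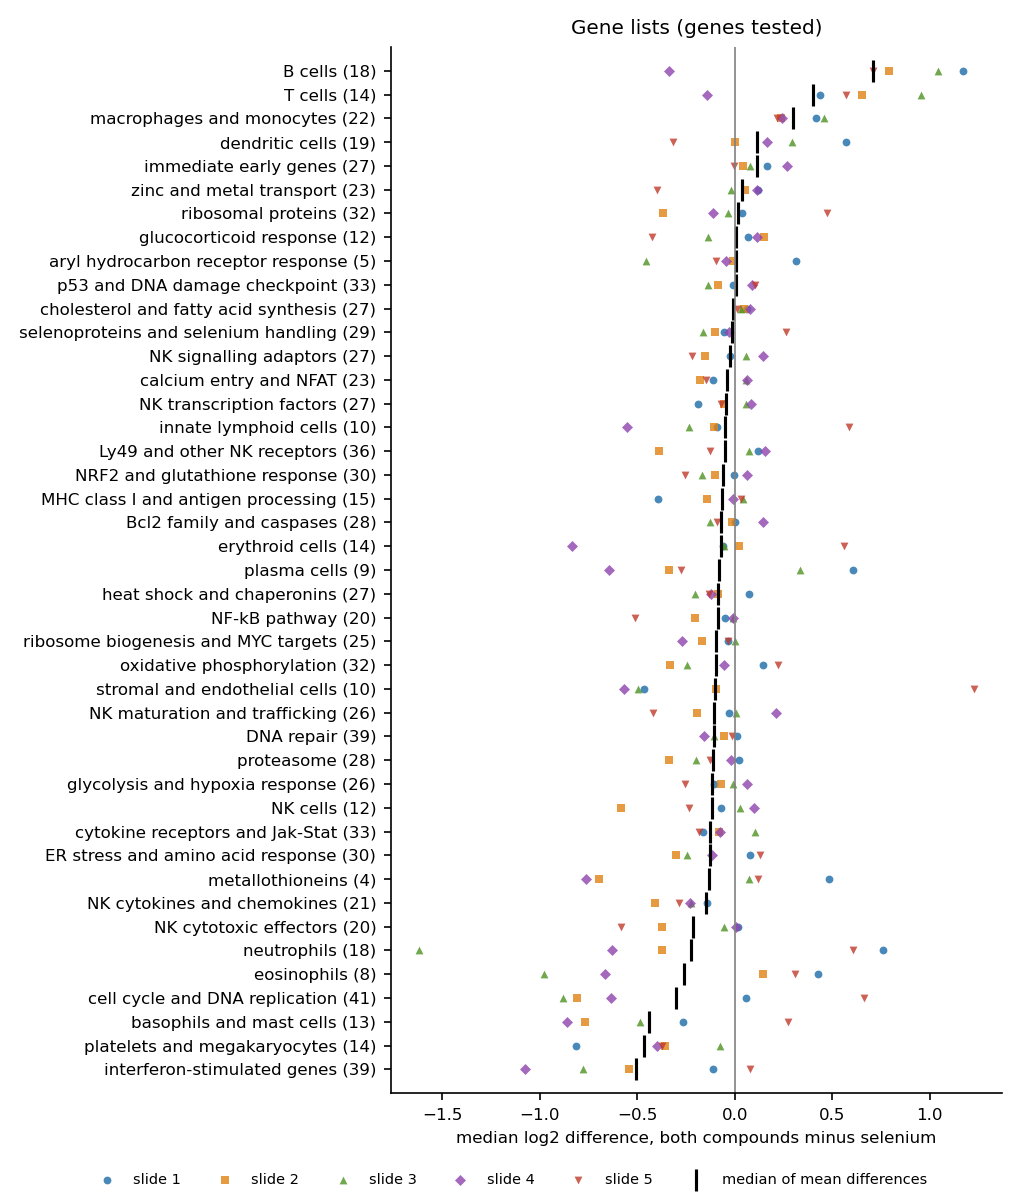
For each of 43 gene lists, symbols give the median log2 difference, both compounds minus selenium, between the 2 mice of each slide, and the bar gives the median of the members' mean differences. The bars run from 0.71 for B cells to -0.51 for interferon-stimulated genes, and the slides of 1 list spread by more than most bars lie from 0.

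Whether the effect of ptaquiloside differed with and without selenium was tested on 19 arrays, without the dim array of ptaquiloside mouse 4. In that interaction 0 of 17481 genes had an adjusted p under 0.05, with a smallest adjusted p of 0.479, and 730 (4.18%) had an unadjusted p under 0.05, so none of the differences is shown to be particular to mice given selenium. The B cell list had a median of -0.57 for ptaquiloside minus control, against 0.71 with selenium, and 10 of 18 of its genes had an unadjusted interaction p under 0.05. For interferon-stimulated genes the medians were 0.06 and -0.51, with 12 of 39 such genes, and for platelet genes 0.02 and -0.47, with 3 of 14. Both comparisons were run on the same slides and share no array. For cell cycle genes the medians were -0.31 and -0.30. Without selenium the median was above 0 on 2 of 4 slides for B cell genes, 3 for interferon-stimulated genes and 2 for platelet genes. The B cell level fell most on slide 5, from 1.05 in control to -1.53 with ptaquiloside.

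**Figure D5:**
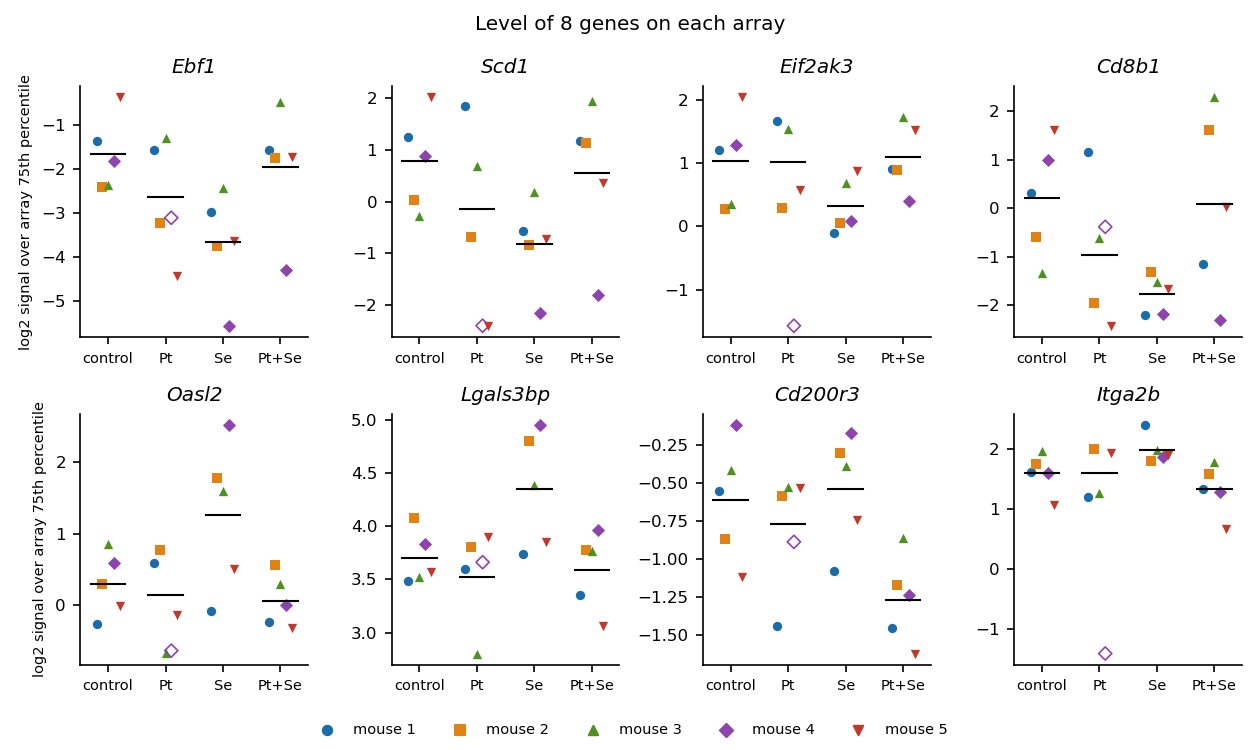
Log2 level of 8 genes on each array in control, ptaquiloside (Pt), selenium (Se) and both compounds (Pt+Se); symbols are mice 1 to 5, bars are group means, and the open diamond is the dim array of ptaquiloside mouse 4, left out of its mean. The selenium group is the lowest on average for Ebf1, Scd1, Eif2ak3 and Cd8b1 and the highest for Oasl2, Lgals3bp, Cd200r3 and Itga2b.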

How the data were processed

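Spots were read from the deposited 1-colour scanner files, whose intensity values come from Agilent Feature Extraction, version 9.5.3.1, per the submitters' processing notes; the processed signal is background-subtracted and not scaled between arrays, per the file headers. Flags for control, outlier and background spots, of unit other, come from the same deposited files. A deposited table of log2 values equals the log2 processed signal plus 19.93, and 10 of its columns were not used. Of 41174 probes 25097 were named through their accession and the rest kept the file's name. Outlier and control spots were left out, spots of a probe were averaged, probes flagged as clearly brighter than background on 5 or more of 20 arrays were kept, and the brightest probe stood for a gene. Differences were fitted with limma 3.58.1 in R 4.3.3 on the 10 arrays with the slide as a block, two-sided, with Benjamini-Hochberg adjustment over all genes, and the script was tested on simulated data. The interaction used 19 arrays. Mice of the same number share a slide; across slides, the correlation of same-slide deviations was 0.390, 0.590, 0.143, 0.453 and -0.343. The slides come from the scanner files, and the labels do not say that a number marks a shared litter or day. Named genes were the 12 higher and 12 lower by smallest p with a difference of at least 0.5 on 5 of 5 slides and the probe so flagged on 5 or more of these 10 arrays, skipping 3 without a gene name, plus the metallothioneins, up to 4 genes of each list described and 7 markers. Some genes that this rule names are not reported here. The comparison, the genes and the 43 lists (966 of 1021 entries tested) were chosen with earlier results of these data known. Lists were described by counts and medians, with no set test. Alternatives were the block, the arrays fitted, scaling, background correction, the filter, the probe, the deposited table, the methods' t-test and leaving out each slide. Coordinates of probes are those of the files on mm9, with no exon annotation used here; promoter windows are from RefSeq, GRCm38.p6.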

Additional observations from a re-analysis of the deposited data

Results flagged for a closer look

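Single samples far from the other 4 of their group, by a gap test that flags about 1 in 20 groups by chance, were found for 10 named genes and 11 list medians. Both groups were searched for each of 91 named genes and 43 lists, so the count for genes is near that rate. The count for lists lies above it. The array of mouse 5 given both compounds, which stood apart as a whole, gave 10 of the flagged values. Its level was 0.526 for Tgtp1 (others 1.69 to 2.08), -0.243 for Ncr1 (1.41 to 1.82), 4.12 for Prf1 (5.69 to 6.05) and 3.71 for Selenos (3.11 to 3.23). Its list medians were 1.73 for selenoproteins (1.13 to 1.29), 0.548 for the aryl hydrocarbon receptor list (-0.616 to -0.281), -0.211 for DNA repair (0.094 to 0.202), 1.33 for Ly49 and other NK receptors (2.14 to 2.22), 3.84 for the NF-kB pathway (4.42 to 4.59) and 1.28 for the Bcl2 family and caspases (1.74 to 1.77).

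Among the other mice given both compounds, mouse 2 stood at -2.91 for Mrc1 (others -3.44 to -3.32), and mouse 4 at -0.083 for Ciita (0.867 to 1.03) and -4.64 for Egr3 (-2.73 to -1.97). Selenium mouse 5 stood at -3.15 for Cdc45 (-1.57 to -1.31) and -0.169 for Cpa3 (0.689 to 0.908), and its median was 0.227 for cell cycle genes (1.25 to 1.67) and 0.136 for cholesterol and fatty acid synthesis (0.507 to 0.654). Selenium mouse 2 had the highest median for NK signalling adaptors, 3.84 (2.94 to 3.18), and for the NF-kB pathway, 4.82 (4.38 to 4.44). Selenium mouse 3 stood at 2.01 for Trib3 (0.984 to 1.23), and selenium mouse 4 at 2.84 for glycolysis and hypoxia genes (3.06 to 3.12).

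In 4 of the 91 named genes ptaquiloside went one way on every slide with selenium and the other way on every slide without it. Without selenium there were 4 slides, as the array of ptaquiloside mouse 4 was left out. Most named genes were chosen by small p, and some by one direction on every slide with selenium. That part of the pattern was therefore partly selected for, and the share of all genes with the whole pattern was not counted. The difference with selenium and without it was -0.822 and 0.561 for Dixdc1, -0.353 and 0.485 for Csf1, -0.563 and 0.427 for Nqo1, and -0.504 and 0.698 for Trib3. The interaction in limma had an adjusted p of 0.971 for each.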

How the results depend on the processing

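The count of genes with an adjusted p under 0.05 was 0 for the comparison and for the interaction under each alternative run. At an unadjusted p under 0.05 the comparison had 494 genes, and 212 with no replicate block, 198 on all 20 arrays, 108 with the normexp background, 125 in the deposited table and 265 of 43379 spots by the methods' t-test (65 with a 2-fold limit, 0 after Benjamini-Hochberg). With no replicate block and without mouse 5 of both compounds, added after seeing the data, there were 320. Leaving out a slide gave 233 to 1982, the lowest without slide 2 and the highest without slide 5; without slide 3 there were 326. The interaction had 730, and 366 on all 20 arrays, 397 with no replicate block, 342 with normexp and 523 to 1049 leaving out a slide. The block changed no adjusted call, and samples matched their own slide number best on slides 2 and 4 only. The macrophage median of 0.30 was 0.0483 with normexp and 0.18 over probes above background on all 10 arrays, and 0.20 to 0.49 leaving out a slide; the other 6 list medians described as shifted moved by less than their spread between slides. The cause of these moves was not tested.

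Of 1437 alternative values for 91 genes 1421 kept their direction, and the other 16 turned. All 375 for the 24 leading genes kept it. Those 24 were chosen for the same direction on 5 of 5 slides, so leaving out a slide could not turn them. Most other named genes were chosen by small p, so these counts are no support for them. Csf1r (0.06) gave -0.0437 with median centring and -0.0675 to 0.481 leaving out a slide, below 0 in each case but without slide 5. Ahrr (0.09) gave -0.0147 with median centring, -0.0432 with normexp, -0.136 to 0.398 leaving out a slide, and -0.0622 with no replicate block and without mouse 5 of both compounds, a setting in which Ncr1 gave 0.00576. Leaving out a slide gave -0.273 to 0.135 for Mt4, -0.0587 to 0.325 for Mt3 and -0.485 to 0.0306 for Tiparp, with Mt3 and Tiparp turning without slide 5.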

Other observations

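In oxidative phosphorylation 27 of 32 genes were lower with both compounds (median -0.10), as were 26 of 28 of the proteasome (-0.11), 18 of 26 of glycolysis and hypoxia (-0.11) and 18 of 25 of ribosome biogenesis and MYC targets (-0.09). Ribosomal proteins were higher in 17 of 32 (0.01), but in 4 of 32 both without slide 5 (-0.11) and with median centring (-0.09). Heat shock and chaperonin genes were lower in 21 of 27 (-0.09), NF-kB genes in 17 of 20 (-0.09), calcium and NFAT genes in 18 of 23 (-0.04), cytokine receptors and Jak-Stat in 25 of 33 (-0.13), and Bcl2 family and caspase genes in 16 of 28 (-0.07). Zinc and metal transport was higher in 13 of 23 (0.04, and -0.07 with median centring), and glucocorticoid response in 6 of 12 (0.01). NK transcription factors were higher in 13 of 27 (-0.04) and NK signalling adaptors in 10 of 27 (-0.02). Without slide 5, 15 of 27 NK signalling adaptors were higher (0.02), and 12 of 20 NF-kB genes were lower (-0.10).

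Of the remaining cell types, plasma cell genes were higher in 4 of 9 (-0.08), erythroid genes in 4 of 14 (-0.07), innate lymphoid genes in 5 of 10 (-0.05), and stromal and endothelial genes in 4 of 10 (-0.10). Eosinophil genes were lower in 7 of 8 (-0.26), but their slide medians went both ways, at 0.43, 0.15, -0.98, -0.67 and 0.31. Leaving out a slide gave -0.44 to 0.02. Without slide 5 the median was -0.35 for stromal and endothelial, -0.21 for erythroid and -0.16 for innate lymphoid genes, -0.15 for ribosome biogenesis, -0.05 for cytokine receptors and Jak-Stat and -0.02 for glycolysis and hypoxia genes.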
